A study of Homo sapiens with 197 samples.

Results

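The wells described here received activated forms of protein kinase A (PKA), protein kinase C (PKC) or the related PKN2. They were chosen by the kinase named in the sample title, as all lanes whose kinase begins with PRKAC, PRKC or PKN. This gave 6 lanes, 3.28% of the kinase lanes analysed, each the only lane of its kinase. PKA was represented by the catalytic subunits PRKACB and PRKACG, PKC by PRKCZ, PRKCI and PRKCD, and the PKN branch by PKN2.

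The study asked whether switching on one signaling pathway is enough to turn on genes that are normally restricted to a tissue. Cells of IMR90, a non-transformed human lung fibroblast line, received a retrovirus in separate wells, with 1 kinase per well made active by a myristoylation signal. Total RNA was taken 4 days after infection and counted with Nanostring probes, which bind RNA directly and are counted without amplification. Each lane held 75 probes, among them 42 tissue-restricted genes, 15 other endogenous rows and the housekeeping gene B2M, which together make the 58 rows compared below. The 6 wells were set against all other kinase wells, and separately against the 19 of these whose kinase belongs to the same AGC group of serine/threonine kinases. The lane of HK1 and the second lanes of PIK3CG and PTK2 were left out, as were 2 lanes of SW39 cells and 6 of a mixed human RNA, so the other kinase wells are the lanes that remain. All kinase wells shared the cell line, the infection and the activating signal, and 3 control lanes of IMR90, given in the labels as empty vector, are shown beside them without a test. These control lanes are named IMR90#1, IMR90#2 and again IMR90#2, and whether all 3 are separate samples was not settled. None of the 6 kinases was measured again, and each of the other kinases entered with 1 lane, so the spread between wells served as the error.

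PKA is held inactive by regulatory subunits, and cyclic AMP releases its catalytic subunits to phosphorylate substrates that include the transcription factor CREB. CREB binds the cyclic AMP response element (CRE) in promoters. PKC isoforms are activated at membranes, PRKCD by diacylglycerol, whereas the atypical isoforms PRKCZ and PRKCI need neither diacylglycerol nor calcium. PKC signaling is known for acting on AP-1, which binds the TPA response element (TRE). PKN2 is a relative of PKC. Myristoylation anchors a protein at the membrane.

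The CRE (TGACGTCA) and the TRE (TGACTCA) were searched on both strands of RefSeq promoter windows (GRCh38.p14, from 250 bases before to 50 bases after the gene start). The sequences around the matches are shown because they hold the exact matches to the classical elements of these pathways in the windows found for the panel. The 15 other endogenous rows were not looked up. Of 46 tissue-restricted and housekeeping rows, 39 had a promoter, with 60 windows in all. The CRE was found in 1 of these windows (1.67%) and the TRE in 3 (5.0%), against 1.85% and 4.95% of all 35116 windows of the same length. The matches are printed 5′ to 3′ on the strand of the gene, with the element in capitals, and the TRE of C9orf11 and of SPACA3 reads as its reverse complement.
TUBB2A, chr6:3157577-3157624, minus strand: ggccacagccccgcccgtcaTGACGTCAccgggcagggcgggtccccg
C10ORF82, chr10:116670467-116670513, minus strand: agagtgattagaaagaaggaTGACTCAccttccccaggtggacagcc
C9orf11, chr9:27297191-27297237, minus strand: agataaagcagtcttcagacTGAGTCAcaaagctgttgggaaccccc
SPACA3, chr17:32992677-32992723, plus strand: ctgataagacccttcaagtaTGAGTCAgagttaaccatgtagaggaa
The element of TUBB2A began 60 bases before the gene start. C10ORF82 and C9orf11 are named SPMIP5 and EQTN in RefSeq. A match describes these letters only, and says nothing about binding in IMR90.

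The total count of the 6 lanes was 142558 for PRKACB, 137127 for PRKACG, 196045 for PRKCZ, 185716 for PRKCI, 272605 for PRKCD and 171971 for PKN2. The other kinase lanes ranged from 29629 to 340763, with a median of 159159. Counts were scaled with the positive controls of the lane and with 3 housekeeping genes (PGK1, TBP and TUBB2A), and the scaled values are called normalized counts. The scaling factor was 1.55 for PRKACG and between 0.713 and 1.02 for the other 5 wells. Background was taken for each lane from its 8 negative controls, as 2 SD above their mean, and lay between 11.9 counts (PRKACG) and 28.9 counts (PRKCD).

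In each single well, most of the 42 tissue-restricted genes were not above background. Of the 42, 3 were above the background of the lane in all 6 wells, namely ALAS1, ATAD2 and ADAM12. Another 19 were above it in some of the wells and 20 in none. The number above background was 3 in PRKACB, 14 in PRKACG, 3 in PRKCZ, 19 in PRKCI, 10 in PRKCD and 4 in PKN2. It was highest in the PRKCI and PRKACG lanes, which had the lowest background levels (12.2 and 11.9 counts). Differences of genes under background are differences of counts that cannot be told from background.

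ALAS1, which encodes the first enzyme of heme synthesis, was the most abundant tissue-restricted gene. Its normalized count was 412.4 in PRKACB, 652.7 in PRKACG, 479.0 in PRKCZ, 585.7 in PRKCI, 614.7 in PRKCD and 467.6 in PKN2. The other kinase wells ranged from 325.6 to 755.6, with a median of 480.4, and the 3 IMR90 control lanes from 444.5 to 532.3. PRKACG, PRKCD and PRKCI lay above every control lane and PRKACB below them, all within the range of the other kinase wells. The 2 PKA wells were the lowest and the highest of the 6, so the PKA and PKC wells overlapped.

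ATAD2, a bromodomain ATPase linked to cell proliferation, was ordered otherwise. Its normalized count was 227.7 in PRKACB, 164.3 in PRKACG, 192.1 in PRKCZ, 182.3 in PRKCI, 138.3 in PRKCD and 228.7 in PKN2, against a median of 178.1 over the other kinase wells (89.1 to 267.3). PRKACB and PKN2 were the highest and PRKCD the lowest, and the PKA and PKC wells overlapped again. The rows named UHRF1 and DNMT1, listed with ATAD2 as proliferation-linked, did not share this order. They are among the 15 other endogenous rows, whose identity was not settled. UHRF1 was highest in PRKACB (1031) and lowest in PKN2 (698.0), and DNMT1 was highest in PRKACG (21.7) and lowest in PKN2 (11.1).

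ADAM12, a membrane metalloprotease, had normalized counts of 50.2 in PRKACB, 68.2 in PRKACG, 42.5 in PRKCZ, 47.1 in PRKCI, 70.6 in PRKCD and 39.4 in PKN2. The median of the other kinase wells was 44.8, with a range of 26.2 to 503.5, the highest of which was MAP3K7. PRKCD, PRKACG, PRKACB and PRKCI stood above the 3 control lanes (30.8 to 46.8), the last by little, and the 6 wells all lay far below MAP3K7. The raw counts behind these values ran from 44 to 99.

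Among the genes of the panel that belong to these signaling routes, PLCZ1 was above background in 4 of the 6 wells. PLCZ1 is the phospholipase C of sperm, which yields the messengers inositol trisphosphate and diacylglycerol at fertilization. Its normalized count was 20.6 in PRKACB, 46.5 in PRKACG, 17.98 in PRKCZ, 39.9 in PRKCI, 42.8 in PRKCD and 27.4 in PKN2, with a median of 26.3 over the other kinase wells. The wells of PRKACG, PRKCD and PRKCI were again the higher ones, and all 6 stayed under the highest other well (73.7). In the 3 control lanes PLCZ1 lay at 15.4 to 19.3.
ADCY10, the soluble adenylyl cyclase, which makes cyclic AMP, was near background throughout. Its normalized count ran from 10.8 in PRKACB to 18.4 in PRKCI, and it was above background in PRKCI only. ROPN1 encodes ropporin, a sperm protein that binds A-kinase anchoring proteins. It had 4.48 normalized counts in PRKACB and 29.5 in PRKACG, from 5 and 19 raw counts, and 8.17, 14.3 and 17.8 in the PKC wells. The 2 PKA wells therefore enclosed the 3 PKC wells for ROPN1.

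**Figure D1:**
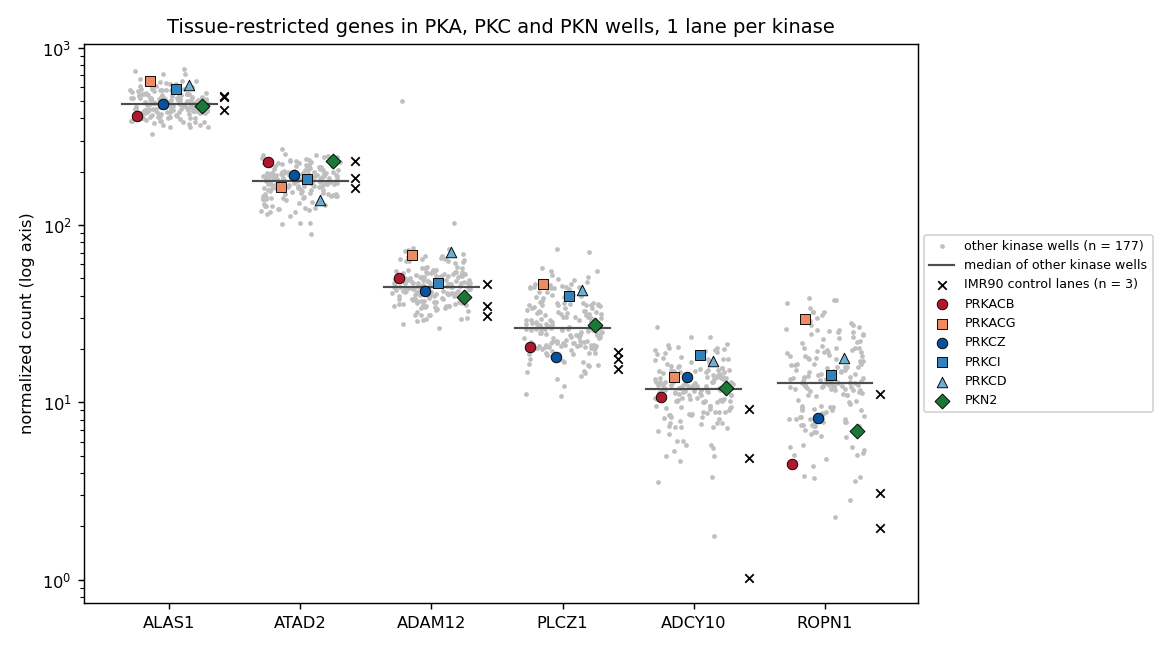
Normalized counts (log axis) of 6 tissue-restricted genes, with 1 colored marker for each of the 6 PKA, PKC and PKN wells, gray points for the other kinase wells, a line at their median and crosses for the 3 IMR90 control lanes. The 6 wells lie within the other kinase wells for each of these genes, and PRKACG lies above PRKACB for all of them except ATAD2.

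The 6 wells were first compared with all other kinase wells. The edgeR quasi-likelihood test with Benjamini-Hochberg adjustment called 0 of 58 rows at an adjusted p of 0.05 (0.0% of rows), with a lowest adjusted p of 0.998. At an unadjusted p under 0.05 there were 0 rows in edgeR as well, and 0 rows in a permutation test with 100000 resamples (lowest adjusted p of 0.992). DESeq2 and limma likewise called 0 rows, here and in the 4 comparisons that follow. The log2 difference was 0.13 for ALAS1 (standard error 0.09, 95% interval of -0.05 to 0.31), 0.09 for ATAD2 (standard error 0.11, -0.14 to 0.31) and 0.11 for ADAM12 (standard error 0.21, -0.31 to 0.54). For PLCZ1 it was 0.16 (-0.23 to 0.55), for ADCY10 0.23 (-0.14 to 0.59) and for ROPN1 -0.17 (-0.78 to 0.43). In limma the difference for ADCY10 was 0.27, and -0.12 when counts were also set to background as a floor. UHRF1 and DNMT1 differed by 0.07 (-0.15 to 0.30) and 0.02 (-0.30 to 0.34), and the direction for DNMT1 turned without PRKCI, PRKCD or PRKACG, as that for ROPN1 did without PRKACB. Over the settings run, the difference for UHRF1 ranged from 0.01 to 0.12. With 1 of the 6 lanes left out, the differences ran from 0.07 (without PRKACG) to 0.20 (without PRKACB) for ALAS1 and from 0.02 (without PKN2) to 0.16 (without PRKCD) for ATAD2. For ADAM12 they ran from 0.0034 (without PRKCD) to 0.18 (without PKN2), and for PLCZ1 from 0.05 (without PRKACG) to 0.29 (without PRKCZ). These 4 genes stayed above 0 in each case. With blocks of 12 sample numbers in the fit, ATAD2 differed by 0.0087.

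Over the 42 tissue-restricted genes, 20 differences were above 0 and 22 below, with a median of -0.04, against 31 above and 27 below and a median of 0.01 over all 58 rows. The upper limit of the 95% interval lay under a log2 difference of 1 for all 42 genes, the highest being 0.80 for CTAG1B, and for 38 of them the whole interval lay between -1 and 1. A 2-fold higher mean count over the 6 wells was thus outside the interval for each of these genes. For genes near background this concerns the counts and not the RNA, since background is part of them. Of the 58 rows, 52 had an interval between -1 and 1.

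The larger gene lists had differences on both sides of 0. The 12 X-linked cancer/testis antigens, such as the MAGE, SSX and XAGE genes, had 5 differences above 0 and 7 below, with a median of -0.05. Their extremes were MAGEB6 (0.18) and MAGEA12 (-0.57). The 8 germ cell RNA and piRNA factors, among them PIWIL1 and MAEL, had 3 above and 5 below, with a median of -0.17, from -0.53 for PIWIL1 to 0.19 for RNF17.
For the 6 genes of germline chromatin, transcription and meiosis the median was -0.06, with 2 above 0 and 4 below, and the extremes were TSPYL6 (-0.55) and CTCFL, a germ cell paralog of CTCF (0.21). The 7 genes of sperm structure and fertilization had 4 above and 3 below, with a median of 0.01, from SPACA3 (-0.31) to PLCZ1. The 6 enzymes, which include ALAS1 and ADCY10, had 4 above and 2 below, with a median of 0.09, from TPTE (-0.21) to ADCY10. The 3 proliferation-linked rows were all above 0, with a median of 0.07. The identity of 2 of them, the rows named UHRF1 and DNMT1, was not settled, and the row named DNMT1 was above background in 2 of the 6 wells. In none of these lists did a gene pass the test. The TRE-bearing C10ORF82, C9orf11 and SPACA3 were under background in all 6 wells.

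The 2 PKA wells and the 3 PKC wells were then compared with each other, in a fit that shared its spread with the other wells. Again 0 of 58 rows passed in edgeR (0.0% of rows), and the lowest adjusted p was 0.990. A single row, TKTL1, had an unadjusted p under 0.05. TKTL1, a transketolase-like gene, had normalized counts of 6.28 and 6.20 in PRKACB and PRKACG and of 10.6, 17.4 and 17.1 in PRKCZ, PRKCI and PRKCD. The PKA wells were both below the PKC wells, from 7 and 4 raw counts against 13, 17 and 24, and the row was above background in PRKCI only. Its log2 difference of PKA minus PKC was -1.25 (standard error 0.54, unadjusted p = 0.0216 and adjusted p = 0.990 from edgeR), and in limma it was -1.12, or 0.06 when counts were also set to background as a floor.

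The PKA minus PKC difference was -0.08 for ALAS1 (95% interval of -0.48 to 0.33), 0.21 for ATAD2 (-0.29 to 0.71), 0.13 for ADAM12 (-0.81 to 1.07) and -0.05 for PLCZ1 (-0.93 to 0.83). For ADCY10 it was -0.43 (-1.27 to 0.40) and for ROPN1 0.19 (-1.15 to 1.52). The directions of ALAS1, ATAD2, ADAM12 and PLCZ1 depended on single wells. Without PRKACB the differences were 0.22 for ALAS1, -0.05 for ATAD2 and 0.47 for PLCZ1, and without PRKACG that of ADAM12 was -0.09. Without PRKCZ it was -0.01 for ADAM12, and PLCZ1 moved to 0.09 without PRKCI and to 0.18 without PRKCD.

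The 42 tissue-restricted genes had 16 differences above 0 and 26 below, with a median of -0.08, which was also the median of all 58 rows. Only 6 of the 42 intervals lay between -1 and 1, so a 2-fold difference between PKA and PKC was within the interval for most genes. Among the 16 rows above background in all 6 wells, 8 were above 0 and 8 below, and 12 intervals lay between -1 and 1. In 6 of the 58 rows the PKA and PKC wells did not overlap (BRDT, PRAME, RBM46, TKTL1, XAGE3 and KCNA1). The PKA wells were higher in 4 of them and lower in 2. An exact permutation test of 2 wells against 3 has 10 choices and cannot go below p = 0.1, which was reached by 3 rows. Without ties, 2 of the 10 choices set the 2 wells wholly above or wholly below the 3, a larger share than 6 of 58 rows. Among these 6 rows the one named KCNA1 alone was above background in all 6 wells.

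**Figure D2:**
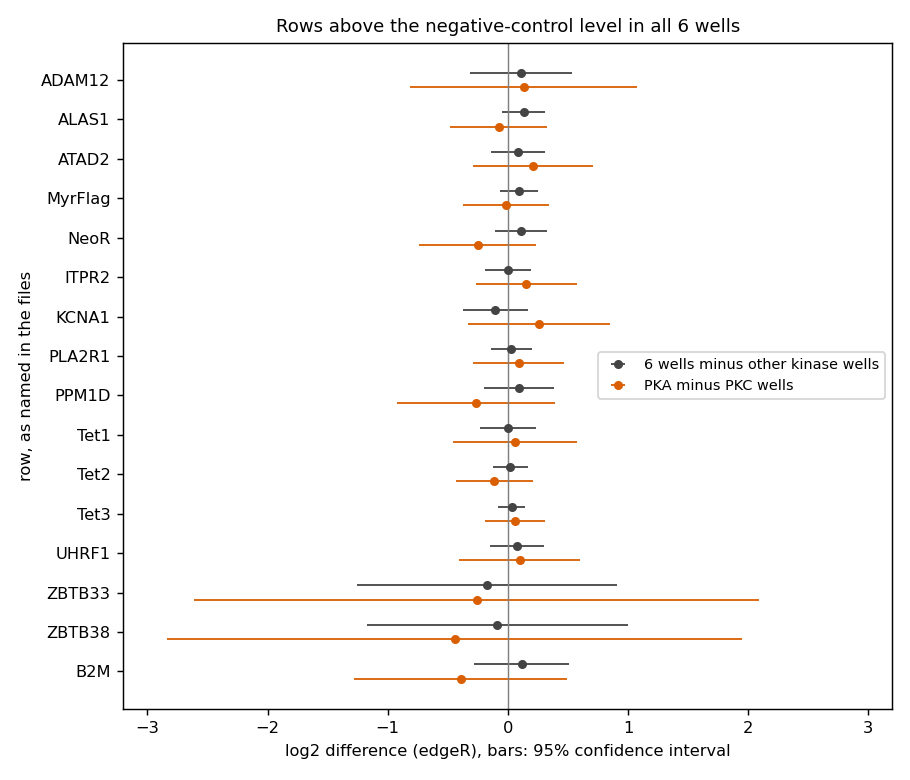
Log2 differences from edgeR with 95% confidence intervals (horizontal axis) for the 16 rows above background in all 6 wells, for the 6 wells minus the other kinase wells and for PKA minus PKC wells. The intervals are wider for PKA minus PKC, and for both comparisons they include 0 in each row.

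Each family was also set against the other kinase wells, which are shared by these comparisons. In the PKA wells 0 of 58 rows passed (0.0% of rows, lowest adjusted p of 0.974 in edgeR), and 0 had an unadjusted p under 0.05. In the PKC wells 0 of 58 rows passed (0.0% of rows, lowest adjusted p of 0.976), and 1 row had an unadjusted p under 0.05. This was PRAME, a cancer/testis antigen, with normalized counts of 4.09 in PRKCZ, 5.12 in PRKCI and 2.14 in PRKCD from 5, 5 and 3 raw counts. All 3 were under the median of the other kinase wells (7.21) and under background. The log2 difference was -1.08 (standard error 0.46, unadjusted p = 0.0192 and adjusted p = 0.976 from edgeR). With 1 PKC lane left out it ran from -1.33 (without PRKCI) to -0.77 (without PRKCD). In limma it was -0.85, or -0.30 when counts were also set to background as a floor and -0.37 with a pseudocount of 10, and in edgeR it was -0.68 with PKN2 counted among the PKC wells. ALAS1 differed by 0.12 in the PKA wells (-0.19 to 0.43) and by 0.20 in the PKC wells (-0.05 to 0.45). For PLCZ1 the values were 0.17 and 0.22, and for ATAD2 0.15 and -0.06. For all 3 genes the PKA wells lay on either side of the median of the other wells, and the direction of the PKA difference turned with 1 of them left out. Without PRKACG the PKA difference was -0.24 for ALAS1 and -0.48 for PLCZ1, and without PRKACB it was 0.42 and 0.69. For ATAD2 it was 0.35 without PRKACG and -0.12 without PRKACB. Without 1 of the PKC wells, ALAS1 ran from 0.12 (without PRKCD) to 0.30 (without PRKCZ), PLCZ1 from -0.0067 (without PRKCD) to 0.53 (without PRKCZ) and ATAD2 from -0.16 (without PRKCZ) to 0.07 (without PRKCD).
Against the 19 other AGC kinase wells, 0 of 58 rows passed (0.0% of rows, lowest adjusted p of 0.981) and 0 had an unadjusted p under 0.05. The differences for ALAS1, ATAD2 and ADAM12 were 0.10, 0.18 and 0.26, each with an interval that included 0. Over the settings run, they ranged from 0.04 to 0.16 for ALAS1, from 0.10 to 0.26 for ATAD2 and from 0.15 to 0.35 for ADAM12. The well of PRKAR2A, a regulatory subunit of PKA, was among the other kinase wells. It had 491.5 normalized counts for ALAS1, 181.9 for ATAD2, 28.7 for ADAM12 and 24.5 for PLCZ1. Its ADAM12 count was below all 6 wells, and its other 3 values lay between those of the 2 PKA catalytic wells.

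Single wells were examined by their Z-scores, that is the distance of a log2 normalized count from the mean of the other kinase wells in units of their SD. Of 348 pairs of a well and a row, 0 had a Z-score of 2.5 or more and 1 had a Z-score of -2.5 or less. Among the 10266 pairs of the other wells these shares were 0.38% and 0.867%. The 1 pair was STK31, a kinase of germ cells, in PKN2, with a Z-score of -2.99. It had 4.28 normalized counts there, from 5 raw counts under a background of 22.6, and was below the lowest other well (5.90). The highest Z-score was 2.42 for ADAM2, a sperm surface protein, in PRKACG, at 43.4 normalized counts from 28 raw counts. Next to it were RNF17 (2.28) and RFX4 (2.26), also in PRKACG. ADAM2 and RFX4 in PRKACG were above the highest other well (42.7 and 25.8), and in 55 of 58 rows all 6 wells lay within the range of the other wells. When blocks of 12 sample numbers were centred on their median, 5 pairs passed, of which ADAM2 (2.74) and ALAS1 (2.71, from 421 raw counts), both in PRKACG, did so upward. With the median absolute deviation 4 pairs passed, and the one upward was the row named ITPR2 in PRKACG (2.54, from 604 raw counts). Downward were STK31 in PKN2 (-2.53) and, in PRKACB, the rows named ZBTB33 (-2.91, from 2473 raw counts) and ZBTB38 (-2.62, from 1589 raw counts). With positive controls only, ALAS1 (2.88, from 862 raw counts) and the row named NeoR (2.71) passed upward in PRKCD. With a pseudocount of 10 the pair of STK31 and PKN2 no longer passed, and 3 pairs passed upward, namely ADAM2 (2.67), RFX4 (2.57) and RNF17 (2.55) in PRKACG.

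Across genes, the wells fell on both sides of the mean. The median Z-score over the 42 genes was -0.80 in PRKACB, -0.65 in PRKCZ and -0.57 in PKN2, and 0.38 in PRKCI, 0.65 in PRKACG and 0.70 in PRKCD. Both the PKA and the PKC wells were thus split. In PRKACB 5 of 42 genes had a Z-score above 0, and in PRKCD 34 did. The lowest Z-scores in PRKACB were those of MAEL (-2.22) and PIWIL1 (-2.06), piRNA factors with 2 raw counts each.

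**Figure D3:**
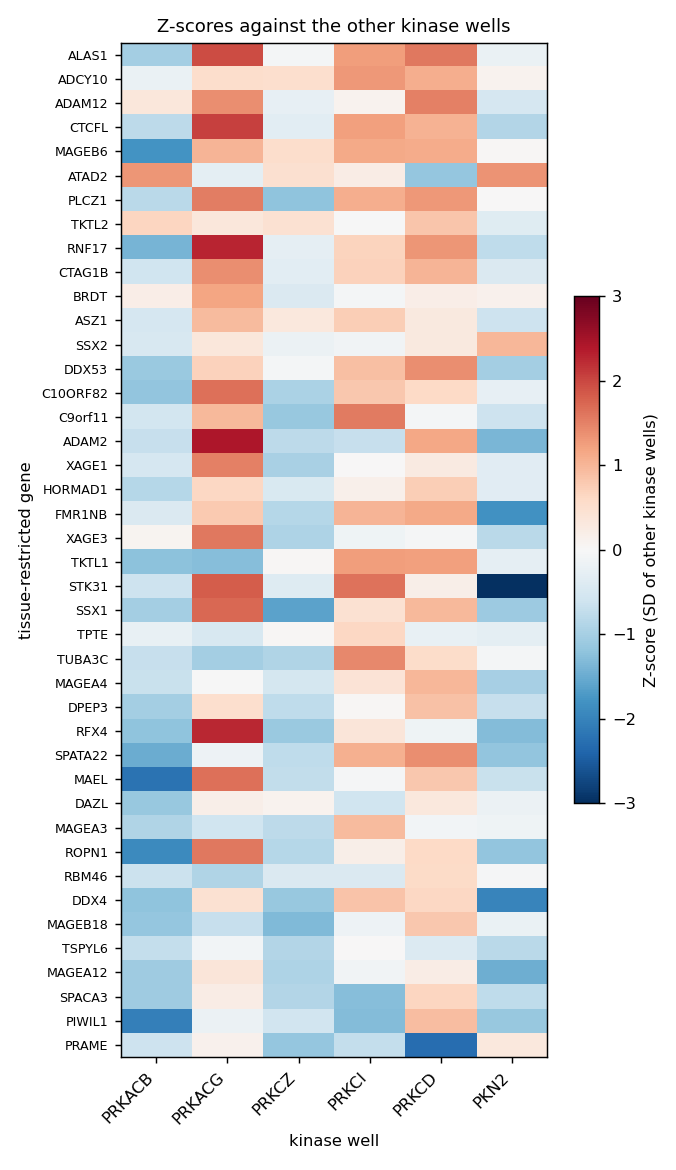
Z-scores (color, in SD of the other kinase wells) of the 42 tissue-restricted genes, in rows ordered by their mean, in the 6 wells. The columns of PRKACB, PRKCZ and PKN2 are mostly blue, with median Z-scores of -0.80, -0.65 and -0.57, and those of PRKACG, PRKCI and PRKCD mostly red.

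This split followed the sample number in the title. The lower wells had the numbers 20 (PRKACB), 39 (PKN2) and 54 (PRKCZ), and PRKCD had the number 120. In blocks of 12 consecutive numbers, the lower wells were in blocks 2, 4 and 5, and the higher ones in blocks 10 (PRKCI and PRKCD) and 13 (PRKACG). Over the other kinase wells, the median Z-score tended to rise with the sample number, a relation looked at after the values had been seen. The rise was not steady, and the wells numbered 25 (CDK9) to 35 (CLK3) were mostly above 0. Pearson's r was 0.54 and Spearman's rank correlation was 0.54 (permutation p = 1e-05 for each, the smallest that 100000 resamples can give, and 2.5e-05 adjusted over 5 relations). Without the 2 most extreme numbers r was 0.54, and within blocks of 12 numbers it was 0.09. The sample number was also related to the row named ZBTB33 (Pearson's r of 0.23, adjusted permutation p = 0.0032, and Spearman's rank correlation of 0.17, adjusted permutation p = 0.028) and, in the other direction, to B2M (r of -0.18, adjusted permutation p = 0.024, and rank correlation of -0.19, adjusted permutation p = 0.019). Without the 2 most extreme numbers these r were 0.24 and -0.18, and within blocks they were -0.0040 and 0.019. Compared with the other wells of its own block, each of the 6 wells lay within the range of this median. The block medians were -0.31 for PRKACB, -0.79 for PKN2, -0.43 for PRKCZ, 0.42 for PRKCI and PRKCD, which share a block, and 0.76 for PRKACG. For single genes this was not so. In ALAS1, PRKACG (652.7) was above all 9 other wells of its block (up to 597.4), PRKCI (585.7) and PRKCD (614.7) were above the 9 of theirs (up to 580.6), and PRKACB (412.4) was below the 8 of its block (from 428.3). With PGK1 and TBP only as scaling genes, PRKACG and PRKCI stayed above their blocks, while PRKCD and PRKACB lay within theirs. In ATAD2, PRKCD was below its block under both scalings, and PKN2 was above its block with all 3 scaling genes only. In ADAM12 and PLCZ1, PRKCD was above its block with all 3 scaling genes and within it with PGK1 and TBP only. These standings were looked at after the values had been seen and have no test. What the sample number stands for is not given in the sources used here, and its part in the differences between wells was not tested further.

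**Figure D4:**
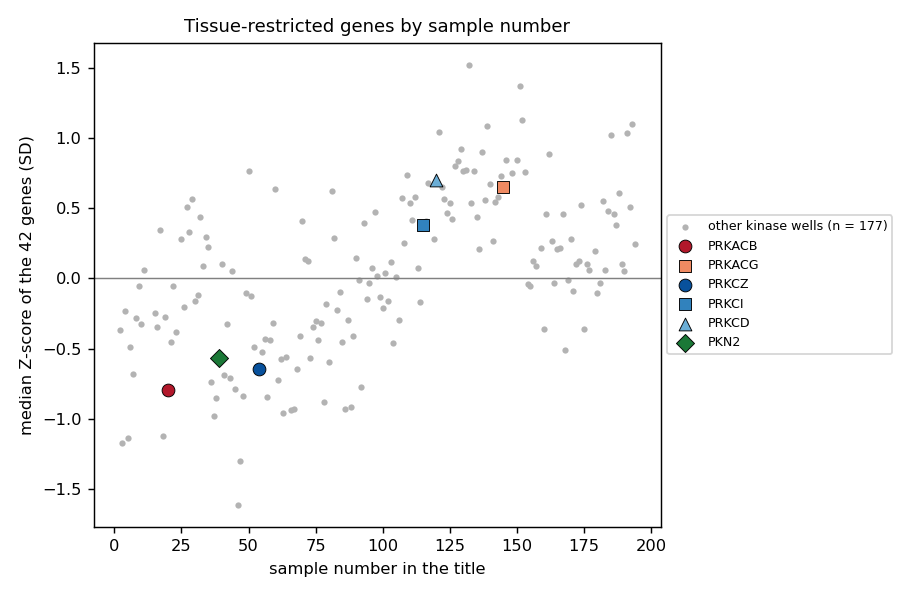
Median Z-score of the 42 tissue-restricted genes (vertical axis, in SD) against the sample number of the title, with colored markers for the 6 wells and gray points for the other kinase wells. Other wells with numbers near those of PRKACB, PKN2 and PRKCZ are mostly below 0, and those near PRKCI, PRKCD and PRKACG mostly above, and r over the other wells is 0.54. The wells numbered 25 to 35, between PRKACB and PKN2, are mostly above 0.

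Among the housekeeping genes, B2M, the light chain of MHC class I, was not used to scale. Its normalized count was 27751 in PRKACB, 55438 in PRKACG, 40963 in PRKCZ, 61058 in PRKCI, 61793 in PRKCD and 34542 in PKN2. The median of the other kinase wells was 39313, with a range of 23138 to 95392, and the control lanes ranged from 34514 to 42381. PRKCI, PRKCD and PRKACG were above all controls and PRKACB was below them. PRKCI and PRKCD were also above the 9 other wells of their block, and with PGK1 and TBP only as scaling genes PRKCI was and PRKCD was not. The log2 difference was 0.11 for the 6 wells against the others (-0.28 to 0.51), 0.33 for the PKC wells against the others (-0.21 to 0.87) and -0.39 for PKA minus PKC (-1.28 to 0.49), which became 0.02 without PRKACB. The first of these ran from 0.02 without PRKCD to 0.23 without PRKACB.

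The scaling genes themselves were not flat in every well, and TUBB2A, a beta-tubulin, is described here after its values were seen. It had normalized counts of 4946 in PRKACB, 3985 in PRKACG, 4353 in PRKCZ, 4021 in PRKCI, 3304 in PRKCD and 4157 in PKN2. The PRKCD well was below the lowest of the other kinase wells (3588) and had a Z-score of -3.25, whereas PRKACB had one of 1.80. PRKACG, at -0.90, was on the other side of the mean from PRKACB. PGK1, a glycolytic enzyme, was at 11561 in PRKCD and at 9644 to 10387 in the other 5 wells. Since each of the 3 genes is part of the scaling factor, a low TUBB2A raises the other values of the PRKCD lane. With PGK1 and TBP only, the Z-scores of PRKCD were 0.78 for ALAS1 and 0.95 for B2M, against 1.57 and 1.29 with all 3.

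For the 15 other endogenous rows the printed names are those of the files, and which RNA each row counts was not settled. The row named ZBTB33 separated kinase wells from control lanes, with normalized counts of 2217 in PRKACB, 42280 in PRKACG, 17076 in PRKCZ, 28941 in PRKCI, 33902 in PRKCD and 9369 in PKN2. The control lanes lay between 8.75 and 18.3. All 6 wells were thus far above the controls, and PRKACB was 19.1-fold below PRKACG. The row named MyrFlag did not separate kinase wells from controls, with 646.1 to 736.2 in the 6 wells and 626.9 to 714.2 in the control lanes. The paper reports the myristoylation-Flag tag for all kinases and no expression of it in non-infected cells. Of these 2 rows, the one named ZBTB33 had such a pattern, with control lanes labelled as empty vector. Whether it counts the tag, and so the amount of kinase in each well, was not tested. The row named ZBTB38 followed the one named ZBTB33, from 1425 in PRKACB to 22957 in PRKACG, with control lanes at 1591 to 7039.
The PKA and PKC wells overlapped in the row named ZBTB33. The mean log2 value of the PKA wells was 1.40 lower than that of the PKC wells, and the edgeR difference, taken on counts, was -0.26 (-2.61 to 2.09). For the row named ZBTB38 the values were 1.46 lower and -0.44. Over the other kinase wells, the row named ZBTB33 also moved with the median Z-score of the 42 genes (Pearson's r of 0.49 and Spearman's rank correlation of 0.51, permutation p = 1e-05 for each, 2.5e-05 adjusted, r of 0.48 without the 2 most extreme wells and 0.51 within blocks). Between this row and B2M, the last of the 5 relations, r was 0.10 (adjusted permutation p = 0.191) and the rank correlation 0.17 (adjusted permutation p = 0.028), with an r of 0.09 without the 2 most extreme wells and within blocks. In the 6 wells the orders differed in part. This row was lowest in PRKACB and PKN2 and highest in PRKACG, whereas the median Z-score was lowest in PRKACB (-0.80) and PRKCZ (-0.65) and highest in PRKCD (0.70) and PRKACG (0.65). PRKCZ was 1.41 above its block median on the log2 scale in this row, while its median Z-score was below that of its block. PRKACB stood at -3.62 from its block median in this row, with 2125 normalized counts in the lowest other well of the block. The part of this row in the median Z-scores was not tested.
The other rows above background in all 6 wells were NeoR, ITPR2, KCNA1, PLA2R1, PPM1D, Tet1, Tet2, Tet3 and UHRF1 by their names in the files. Of these, the row named ITPR2 had the widest spread in Z-score, from 486.9 normalized counts in PRKACB (-1.89) to 936.5 in PRKACG (2.16).

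**Figure D5:**
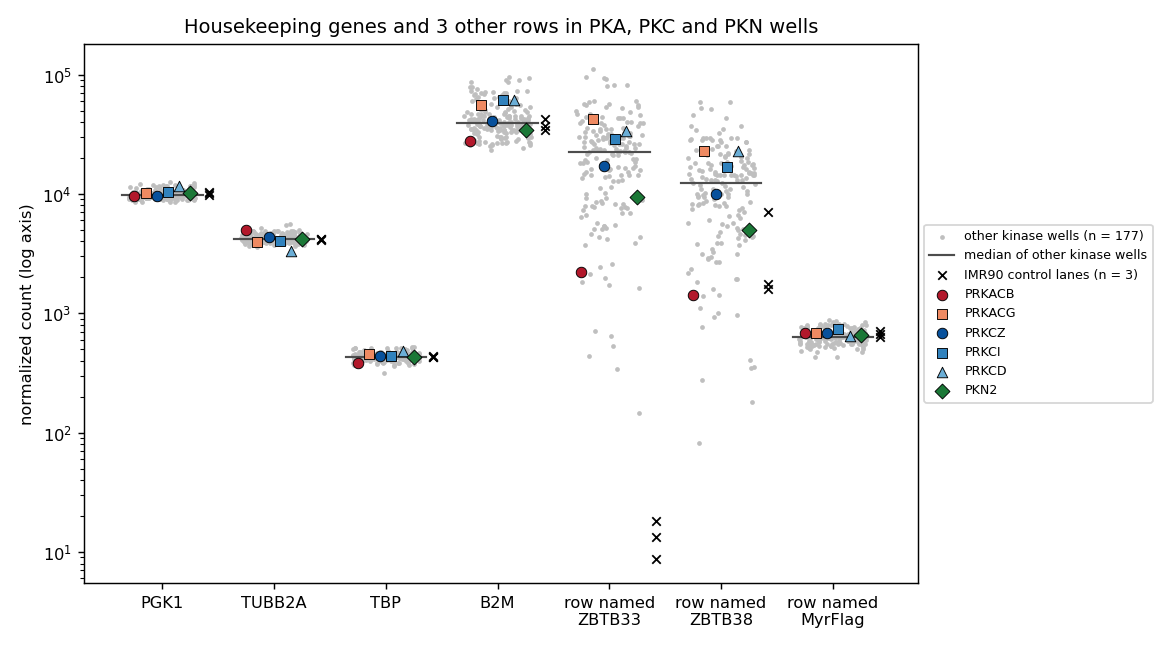
Normalized counts (log axis) of the 3 scaling genes, B2M and the rows named ZBTB33, ZBTB38 and MyrFlag, with colored markers for the 6 wells, gray points for the other kinase wells and crosses for the 3 IMR90 control lanes. PRKCD is the lowest of all wells for TUBB2A (3304), and the row named ZBTB33 runs from 2217 in PRKACB to 42280 in PRKACG, while the controls are at 8.75 to 18.3.

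Finally, the wells were compared by the root mean square difference of their log2 values over 14 rows above background. The rows named ZBTB33 and ZBTB38, with log2 SDs of 1.59 and 1.57 over the 6 wells, were not among them. The 15 pairs among the 6 wells lay between 0.20 and 0.49, with a median of 0.32, and the 15576 pairs among other wells had a median of 0.35. The 2 PKA wells were the least alike of the 15 pairs (0.49), and PRKACG was closest to PRKCI (0.20). The nearest well outside the 6 was PDK1 for PRKACB (0.10), CDC2 for PRKCZ (0.07), DLG5 for PRKCI (0.12) and RPS6KB1 for PKN2 (0.11). For both PRKACG (0.20) and PRKCD (0.23) it was MOBKL2A. These distances are a description over 14 rows and carry no test. Apart from ADAM12, ALAS1, ATAD2 and B2M, the 14 rows are among the 15 other endogenous rows, whose identity was not settled.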

How the data were processed

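RNA of the 6 PKA, PKC and PKN wells and of the other kinase wells was counted by Nanostring. The authors deposited raw counts for each probe and lane, as the instrument gave them, and a series-wide table whose signal was, in each of the 197 lanes, one multiple of the counts. The multiple was 1 in 8 lanes, none of them among the 6. This table was used as an alternative only. The positions of lanes on cartridges are not given in the sources used here.

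Counts were scaled as in the study's methods, by the geometric mean of the 6 positive controls and then of PGK1, TBP and TUBB2A. The scaling factors entered edgeR 4.0.16 in R 4.3.3 as offsets, p-values came from its quasi-likelihood test, and they were adjusted by Benjamini-Hochberg over the 58 rows. Standard errors were derived from the F statistic. The 6 wells were fitted against the others in 2 groups, and PKA against PKC in a fit with 4 groups. Each kinase entered with 1 lane, the second lanes of PIK3CG and PTK2 being left out, so the p-values measure the spread between wells. Z-scores used log2(normalized count + 1), and permutation tests were two-sided. DESeq2 1.42.0, limma 3.58.1, other scalings, filters, floors and pseudocounts, blocks of 12 sample numbers and each lane left out were alternatives. Other computations used numpy 2.4.6, scipy 1.17.1, pandas 2.3.3 and matplotlib 3.10.9 in Python 3.11.15, and the fits were tested on simulated data.

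Genes named were those passing the test, ADAM12, ALAS1, ATAD2, B2M, UHRF1, DNMT1, the rows MyrFlag and ZBTB33, ADCY10, PLCZ1, ROPN1, pairs with an absolute Z-score of 2.5 or more, the 5 largest PKA to PKC differences among rows above background in all 6 wells, and the other rows above it. Other names (among them TKTL1, PRAME, ADAM2, RFX4, TUBB2A and the extremes of lists) were picked with their values in view. The wells and lists were chosen with earlier results of these data known. Weak rows of a few counts carry a large counting error, and the lane totals of the 6 wells ranged from 137127 to 272605.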

Additional observations from a re-analysis of the deposited data

Results flagged for a closer look

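In 5 of 61 rows, 1 of the 6 wells stood apart from the other 5 by Dixon's test at the 95% level, which chance alone gives in about 1 in 20 groups. In PRKACG these were BRDT at 6.20 normalized counts (next well 3.59), RFX4 at 26.4 (next 12.3), XAGE1 at 17.1 (next 9.27) and XAGE3 at 17.1 (next 8.97). In PRKCI it was MAGEA3 at 12.3 (next 7.84). PRKACG had the largest scaling factor of the 6 lanes, 1.55. The raw counts behind these 5 values were 4, 17, 11, 11 and 12, in the order given, and RFX4 alone was above the background of its lane.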

How the results depend on the processing

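The count of 0 rows passing was the same in 99 of 99 alternatives over the 5 comparisons, and the lowest adjusted p reached was 0.256 (PKA minus PKC, with blocks of sample numbers). Rows with an unadjusted p under 0.05 ranged over the settings from 0 to 1 (6 wells against all others, and against AGC kinases), 0 to 3 (PKA minus PKC), 0 to 5 (PKA) and 0 to 4 (PKC). Of 552 alternatives for the log2 differences of single genes, 519 kept the direction and 33 did not, and the cause was not tested. The pairs past a Z-score of 2.5 in either direction numbered 3 with positive controls only, 4 with the median absolute deviation, 0 with the floor at background, 3 with a pseudocount of 10 and 5 with blocks centred. For the 6 wells against the others, ADCY10 was at -0.12 and DNMT1 at -0.13 with the floor in limma, and DNMT1 at -0.017 with 4 housekeeping genes and -0.019 with PGK1 and TBP only. In the PKC wells ATAD2 was at 0.058 with positive controls only and 0.056 with PKN2 counted as PKC. For PKA minus PKC, ALAS1 was at 0.022 and PLCZ1 at 0.060 with 4 housekeeping genes, ALAS1 at 0.014 and PLCZ1 at 0.055 with PGK1 and TBP only (added after the values were seen), ATAD2 at -0.026 and ADAM12 at -0.16 with positive controls only, ADAM12 at -0.00033 with blocks, PLCZ1 at 0.020 with PKN2 counted as PKC, and ADCY10 at 0.029 and TKTL1 at 0.055 with the floor in limma. Leaving out 1 lane gave -0.44 to 0.22 for ALAS1, -0.054 to 0.42 for ATAD2, -0.094 to 0.39 for ADAM12, -0.70 to 0.47 for PLCZ1 and -0.98 to 0.022 for B2M in PKA minus PKC, -0.47 to 0.010 for ROPN1 and -0.043 to 0.12 for DNMT1 in the 6 wells, -0.24 to 0.42 for ALAS1, -0.48 to 0.69 for PLCZ1 and -0.12 to 0.35 for ATAD2 in the PKA wells, and -0.0067 to 0.53 for PLCZ1 and -0.16 to 0.072 for ATAD2 in the PKC wells. Leaving out lanes with a housekeeping factor above 3 or below 1/3 was not run, as no lane passed that limit, and lanes with a scaling factor above 3 (MAPK14 and PIP5K2A) were left out instead. No paired analysis was possible because each kinase entered the comparisons with 1 lane, and the lanes compared are not numbered as replicates in the labels.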
